A study of Mus musculus with 32 samples.

Results

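Among the *Tyrobp*-expressing cells of cultured mouse bone marrow stroma, 4384 of 17692 had a high summed RNA level of *Gpnmb*, *Mmp12* and *Trem2* and few resident-type macrophage or osteoclast genes, and are called Gpnmb Trem2 macrophages, or members, here. They were chosen by measured RNA, and not every member carried all 3 genes. A droplet (1 barcode) was kept with 400 to 6200 detected genes and at most 10% of its unique molecular identifiers (UMIs, 1 per captured RNA molecule) from mitochondrial genes, and it counted as a *Tyrobp* cell with at least 2 UMIs of *Tyrobp*, the signalling adaptor of many myeloid receptors. A member then had at least 20 UMIs of *Gpnmb*, *Mmp12* and *Trem2* together per 10000 UMIs, under 3 detected genes among *Stab1*, *Cbr2*, *Fcrls*, *F13a1* and *Pf4* (genes of resident-type macrophages), and under 3 among *Acp5*, *Mmp9*, *Ocstamp*, *Dcstamp*, *Calcr* and *Oscar* (osteoclast genes). The other 13308 *Tyrobp* cells were 7240 with 3 or more of the resident-type genes (resident-gene cells), 240 with 3 or more of the osteoclast genes (osteoclast-gene cells) and 5828 that met none of these limits. All levels of those 15 genes are descriptions of the choice, not results.

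The cells came from bone marrow stromal cells of Diversity Outbred (DO) mice, an outbred population bred from several inbred founders, grown under osteogenic conditions until they mineralized (BMSC-OBs). Cells of 4 or 5 mice, 77 in all, were mixed into 16 pools, numbered 1 to 14, 17 and 18, and each pool was 1 droplet library. No treatment was compared. By the study's methods, every pool was grown in the same osteogenic medium, which held ascorbic acid, β-glycerophosphate and the glucocorticoid dexamethasone. The comparisons here are therefore between cell classes of the same pool. The mice of a pool were not told apart here, and neither age nor sex was used. Each pool is 1 mixed sample, so that p-values measure the spread between pools.

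TREM2 is a lipid- and debris-sensing receptor of macrophages that signals through the TYROBP adaptor. Macrophages that take up much lipid in atheroma, adipose tissue or injured brain are known to carry TREM2, the lysosome- and melanosome-associated glycoprotein GPNMB, the lipid droplet coat protein PLIN2 and galectin-3 (LGALS3). In such cells, lipid enters through scavenger receptors, is freed in acidified lysosomes, and is then stored in droplets or exported as cholesterol. Lipid itself was not measured in these cultures.

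The pools held 53990642 to 100777353 UMIs in 107853 droplets, of which 90924 were kept, and the members held 364584 to 7492665 UMIs per pool. Across the libraries, 45 *Tyrobp* cell barcodes and 3 member barcodes occurred in more than 1 pool. The median depth of the members was 3121 to 7209 UMIs per pool. That of the resident-gene cells was 4632 to 10884.5, and the members were the shallower class in 16 of 16 pools. Since the limits count detected genes, a shallow droplet passes the limit of 3 resident-type genes more easily, and several results against the resident-gene cells are therefore given also after every cell was thinned to 3000 UMIs. Values "at 3000 UMIs" have the classes redrawn by the same rule on the thinned counts, which gave 4407 members and moved cells between classes. In pool 1, for example, 521 of 586 resident-gene cells were deep enough, and 298 cells met that limit after redrawing. Values "with classes kept" use the same thinned counts but the classes as first drawn, of which 3478 members were deep enough, a setting chosen after the data were seen.

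The 3 genes that chose the members contributed unequally. The score, summed UMIs of *Gpnmb*, *Mmp12* and *Trem2* per 10000, had a median of 54.7 per member (quartiles 33.3 and 93.1, highest 630), from a median of 30 such UMIs. *Gpnmb* alone took 61.0% of the members past the limit, *Mmp12*, a macrophage elastase, 37.3%, and *Trem2* 15.9%, while 20.2% passed by no single gene. All 3 genes were detected in 65.1% of the members. The score had no gap at the limit: 205 cells scored from 18 to below 20 and 209 members from 20 to below 22, and the nearest cells on either side scored 19.98 and 20.01. Beyond the limit lay 7070 *Tyrobp* cells, and 2642 of those with 3 or more resident-type genes were set aside by the rule, so that 36.5% of the resident-gene cells also passed the score. Of the members, 35.1% had 2 resident-type genes, 39.1% had 1 and 25.8% had none. One osteoclast gene was detected in 51.0% of members, and 2 in 2.97%.

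The summed level of *Gpnmb* in the members, in CPM (where 10000 CPM is 1% of the UMIs of that class in a pool), was 2205, 3349.8 and 5617 CPM in the lowest, median and highest pool, and in all other *Tyrobp* cells it was 216, 501 and 1072 CPM. *Mmp12* was at 1261, 2489 and 3513 CPM in the members and at 68.4, 329 and 708 CPM in the others. *Trem2* was at 469, 1087 and 1478 CPM in the members and at 206, 307 and 656 CPM in the others. Of the 3, *Trem2* overlapped between the classes over pools, and the cells outside the rule carried some of each RNA. Among the genes that set cells aside, *F13a1* was at 39.0, 226 and 336 CPM in the members and 666, 990.4 and 1419 CPM in the resident-gene cells, and *Acp5* at 152, 299 and 437 CPM in the members and 7761, 9012 and 9526 CPM in the osteoclast-gene cells. The osteoclast-gene values come from only the 3 pools with at least 20 such cells, and the others from 16.

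Promoter sequences of the 3 choosing genes and of 3 acid compartment genes described below are shown for the letters bound by the MiT/TFE factors (MITF, TFEB, TFE3, TFEC), which are known to bind TCACGTGA or TCATGTGA at lysosomal and melanosomal genes. The windows lie upstream of the RefSeq transcript start in build GRCm38.p6 and are printed 5′ to 3′ on the gene's strand, with TCACGTGA in capitals, except in *Mmp12*. These are *Gpnmb* (chr6:49036398-49036517, plus strand), *Mmp12* (chr9:7347254-7347373, plus strand, where the capitals are the reverse complement of TCATGTGA, the other run of letters), *Trem2* (chr17:48346281-48346400, plus strand), *Ctsd* (chr7:142387828-142387947, minus strand), *Gla* (chrX:134601006-134601245, minus strand, which also holds TCATGTGA in lower case, 211 bases before the start) and *Atp6v1a* (chr16:44139260-44139409, minus strand).
Gpnmb: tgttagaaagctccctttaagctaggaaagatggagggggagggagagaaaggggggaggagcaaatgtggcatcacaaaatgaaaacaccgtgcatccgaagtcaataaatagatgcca
Mmp12: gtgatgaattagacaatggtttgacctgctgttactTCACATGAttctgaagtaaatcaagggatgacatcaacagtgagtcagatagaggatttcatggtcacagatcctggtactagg
Trem2: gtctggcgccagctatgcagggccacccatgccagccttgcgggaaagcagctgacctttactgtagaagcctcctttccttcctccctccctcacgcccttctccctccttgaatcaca
Ctsd: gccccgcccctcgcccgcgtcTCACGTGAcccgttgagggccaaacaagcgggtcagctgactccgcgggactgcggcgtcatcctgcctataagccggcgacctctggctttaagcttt
Gla: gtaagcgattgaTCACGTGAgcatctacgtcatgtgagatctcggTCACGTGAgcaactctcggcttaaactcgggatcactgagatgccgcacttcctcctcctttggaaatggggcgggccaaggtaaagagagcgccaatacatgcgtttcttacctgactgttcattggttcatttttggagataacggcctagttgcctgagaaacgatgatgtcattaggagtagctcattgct
Atp6v1a: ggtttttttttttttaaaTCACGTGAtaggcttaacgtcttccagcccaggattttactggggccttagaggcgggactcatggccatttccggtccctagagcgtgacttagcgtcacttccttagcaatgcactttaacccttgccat
No capitals stand in the windows of *Gpnmb* and *Trem2*, which says only that these letters are not in the bases printed. A match is a run of letters and not a measured site.

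The members made up 24.8% of all *Tyrobp* cells and 4.82% of the kept droplets. Pool by pool their share ran from 10.6% of *Tyrobp* cells in pool 18 (95% Wilson interval 9.25 to 12.1%) to 41.4% in pool 2 (39.4 to 43.3%), with a median of 21.6%, and from 73 cells in pool 4 to 1022 in pool 2. Every pool thus held members, with 1022 in pool 2 and 627 in pool 1. The intervals cover the counting of cells only, and not the choice of score limit. At a limit of 40 the share was 5.66% in pool 18, 13.8% in pool 5 (from 24.6%) and 32.7% in pool 2. At a limit of 10 it was 17.1%, 32% and 45.3% in pools 18, 5 and 2. Without *Mmp12* in the score it was 6.95%, 15.6% and 39.0%. In the plot of shares by pool, the intervals of pools 2, 1 and 3 all lie above those of pools 8, 13, 12 and 18, while most neighbours in the order overlap. The place of pool 13 rests on droplets with much stromal RNA. Of its remaining *Tyrobp* cells 92.1% had over 100 UMIs of the osteoblast genes *Col1a1* and *Ibsp* per 10000, and without all such droplets its members were 112 of 346 *Tyrobp* cells (32.4%) in place of 127 of 980 (13.0%).

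**Figure D1:**
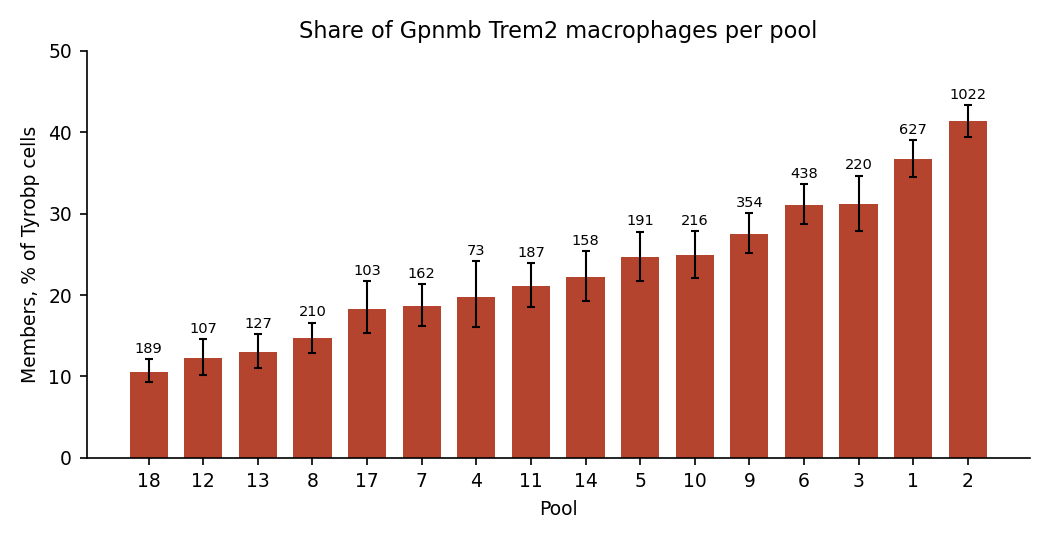
Gpnmb Trem2 macrophages as a percentage of the *Tyrobp* cells of each pool, ordered by share; bars start at 0, whiskers are 95% Wilson intervals and the number over each bar is the count of members. The share runs from 10.6% in pool 18 to 41.4% in pool 2.

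The share was set against 4 other measures of the 16 pools, with two-sided permutation tests adjusted over the 4. It rose with the median UMI count of the pool's *Tyrobp* cells (Pearson's r = 0.643, permutation p = 0.00728, adjusted p = 0.0291), but Spearman's rho of 0.585 did not pass (permutation p = 0.0191, adjusted p = 0.0765). Without pools 1 and 13, the farthest in depth, r was 0.494, and leaving out 1 pool gave values from 0.555 to 0.715. The adjusted p of the permutation test rose above 0.05 without pool 1, 2, 6, 12 or 13, and with suspected doublets removed. The members are among the *Tyrobp* cells whose depth was taken, and the rule itself counts UMIs and detected genes. Depth and share are therefore not independent measures. The share of kept cells that were *Tyrobp* cells (r = 0.325, rho = 0.206), the summed CPM of adipogenic stromal genes in *Tyrobp*-negative cells (r = 0.312, rho = 0.179) and that of mineralizing osteoblast genes (r = -0.391, rho = -0.391) did not pass either, each with a permutation test's adjusted p of 0.240 for r. Without the 2 pools farthest in adipogenic level, pools 6 and 1, that r was -0.096. Without pool 2 the r of the *Tyrobp* cell share was 0.0132, and without pool 18 that of the mineralizing genes was -0.572 (permutation p = 0.0258, adjusted p = 0.0517). The *Tyrobp* cell share and the member share use the same count of *Tyrobp* cells, and so are not independent either.

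Against all other *Tyrobp* cells of the same pools, the members carried more RNA of galectin-3, the lipid droplet protein perilipin 2, fatty acid binding proteins and an osteoclast-type proton pump subunit. They carried less of most tested cell cycle, cholesterol synthesis, granulocyte, stromal and resident-type macrophage genes, the last with 9 of 12 called lower and 3 higher. *Plin2*, which coats lipid droplets, was at 1139.7, 2110.1 and 3099 CPM in the lowest, median and highest pool of the members and at 256, 336 and 891 CPM in the others. The pools of the 2 classes did not overlap, and the level was 4.92-fold higher in the members, a log2 difference of 2.30 ± 0.082, edgeR adjusted p = 4.62e-16 (± SE, n = 16 pools). *Lgals3*, a lectin known to rise in phagocytes, was at 11612, 14853 and 20392 CPM in the members and at 1811, 2774 and 3765 CPM in the others, a 5.11-fold difference (log2 2.35 ± 0.075, edgeR adjusted p = 6.76e-17). Both were higher in 16 of 16 pools. Neither was used by the rule, but both belong to the markers named for the members with earlier results of these data known. Their direction is therefore not independent of the choice.

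Most genes passed this test, since differences between classes were large beside the spread between pools. Of 10976 genes tested outside the rule, 34.5% were called higher and 35.3% lower in the members at an adjusted p of at most 0.05. A 2-fold difference was rarer, with 2.63% of genes called and at least 2-fold higher and 13.8% called and at least 2-fold lower. The pools of the 2 classes did not overlap for 2.34% of genes on the higher side and 1.13% on the lower side. The counts of the gene lists are to be read against these shares. In the settings used below, 29.4% of genes were called higher and 33.2% lower with few stromal UMIs, 28.8% and 29.6% at 3000 UMIs, and 27.7% and 29.7% with classes kept.

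By the naming rule given below, the 15 named genes with the highest log2 difference against all other *Tyrobp* cells began with *Npy*, which encodes neuropeptide Y. It was at 27.7, 102 and 324 CPM in the lowest, median and highest pool of the members and at 0.365, 6.29 and 29.0 CPM in the others, 11.5-fold higher (log2 3.53 ± 0.20, edgeR adjusted p = 6.10e-13). It was higher in 16 of 16 pools although the ranges over pools overlapped. *Atp6v0d2*, a proton pump subunit best known from osteoclasts, was at 262, 449 and 633 CPM in the members and at 20.9, 57.6 and 152 CPM in the others, 7.28-fold higher (log2 2.86 ± 0.13, edgeR adjusted p = 2.53e-14). *Htr2b*, a serotonin receptor gene, followed at a log2 difference of 2.48, and then came *Lgals3* and *Plin2*. The surface peptidase gene *Anpep* (2.10), *Tmem140* (2.06), the interleukin-7 receptor gene *Il7r* (2.01), the G protein regulator *Rgs1* (1.94), the cytokine receptor chain *Csf2rb2* (1.94) and podoplanin, *Pdpn* (1.91), came next. The lysosomal cysteine transport gene *Mfsd12* (1.91), the gamma-secretase subunit *Aph1c* (1.87), the GTPase-activating *Arhgap25* (1.87) and *Ahnak2* (1.86) completed the 15. Except for *Npy*, *Pdpn* and *Ahnak2*, pools of members and others did not overlap for these genes. *Il7r*, otherwise known as a lymphocyte gene, was at 139.7, 244 and 330.0 CPM in the members, while *Cd3e*, *Cd3d*, *Cd3g* and *Trbc2* of the T-cell receptor complex summed to 0, 0 and 11.4 CPM.

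The resident-gene cells give the narrower comparison, since the other *Tyrobp* cells also held granulocyte RNA. The same member samples were set against these 7240 cells, and 33.3% of 10055 genes were called higher and 33.1% lower, with 1.96% called and at least 2-fold higher and 10.2% called and at least 2-fold lower. Pools did not overlap for 1.82% of genes on the higher side and 0.567% on the lower side. With few stromal UMIs 29.7% of genes were called higher and 32.2% lower, at 3000 UMIs 26.9% and 29%, and with classes kept 28.7% and 29.8%. Among the genes that met the naming rule given below, *Npy* (3.45), *Atp6v0d2* (3.18), *Plin2* (2.24), *Lgals3* (2.23), *Htr2b* (2.09), *Csf2rb2* (2.08), the small GTPase gene *Rhov* (2.00), *Il7r* (1.88), *Tmem140* (1.87) and *Anpep* (1.77) had the highest log2 differences. *Plin2* in the resident-gene cells was at 237, 329 and 1151 CPM, so that the highest of their pools, pool 1 at 1151 CPM, passed the lowest pool of the members, pool 3 at 1139.7 CPM. At the low end were *Marco* (-3.58) and *Vsig4* (-2.50), receptors of tissue macrophages, the chemokines *Ccl8* (-3.11) and *Cxcl13* (-3.10), and the osteoblast matrix gene *Ibsp* (-2.46). In droplets with few stromal UMIs, a limit set after the data were seen, the *Ibsp* difference was -0.11 and did not pass (edgeR adjusted p = 0.0869). That limit is set on the summed UMIs of *Col1a1* and *Ibsp* itself, so the smaller difference there is not independent of the limit.

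**Figure D2:**
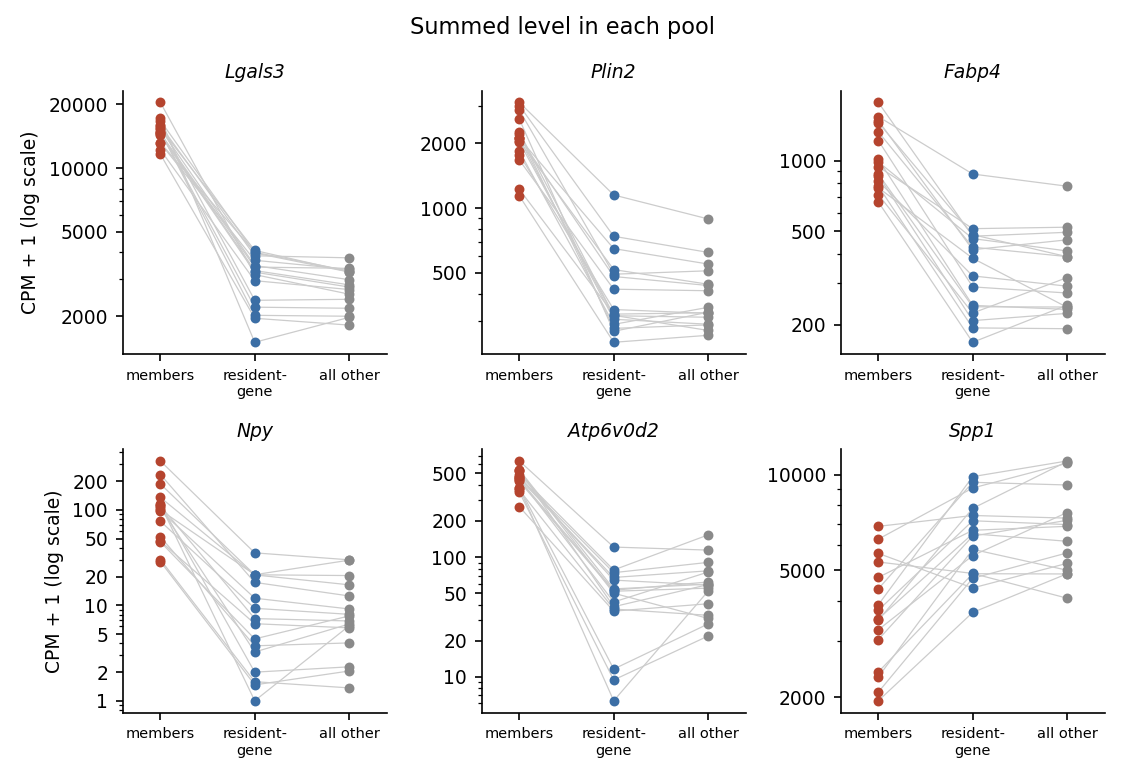
Summed level in CPM plus 1, on a log axis, of 6 genes outside the rule; each point is 1 of 16 pools, grey lines join the classes of a pool, and "all other" holds every *Tyrobp* cell that is not a member. *Lgals3* and *Atp6v0d2* do not overlap between members and either class, and *Spp1* has a median of 3634 CPM in the members and 6462 CPM in the resident-gene cells.

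Shares of cells with a UMI at a fixed depth of 3000 UMIs, here and below with classes kept, had the same order. *Plin2* was detected in 92.2% of the members, 63.5% of the resident-gene cells and 51.4% of the remaining *Tyrobp* cells, beside 19.7% of T cells and 17.6% of stromal cells. *Atp6v0d2* was detected in 51.5% of the members, 11.6% of the resident-gene cells, 8.68% of the remaining cells, 0.675% of T cells and 0.792% of stromal cells. In the osteoclast-gene cells the *Atp6v0d2* share was 69.2% (86.7% before thinning). The shares in T cells and stromal cells give the background. Before thinning, with pool medians of 3121 to 7209 UMIs in the members, 1680 to 28696.5 in T cells and 2664 to 20714.5 in stromal cells, the *Atp6v0d2* shares were 57.2%, 1.14% and 2.11%, and those of *Plin2* 92.7%, 31.8% and 47.1%. Thinning left out 906 members and 748 resident-gene cells as too shallow.

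Genes linked to TREM2 lipid macrophages were mostly higher, but not the whole list. The members were chosen by genes of the same kind, so that the direction is not independent of the choice. Of 20 tested, 14 were called higher and 4 lower against all other *Tyrobp* cells, with a median log2 difference of 1.15 beside -0.0019 over all genes. Against the resident-gene cells 14 of 20 were called higher and 4 lower, with a median of 0.69 beside 0.01. At 3000 UMIs these counts were 13 and 3 of 19, with a median of 0.35, and with classes kept 13 and 3 of 19 (median 0.48). *Fabp5*, an intracellular fatty acid carrier, was at 1746, 2355 and 3531 CPM in the members and at 378, 786 and 1473 CPM in the resident-gene cells (log2 1.50 ± 0.092, edgeR adjusted p = 4.96e-12), without overlap. *Fabp4*, another such carrier, was at 665, 963 and 1765 CPM in the members and 167, 352 and 875 CPM in the resident-gene cells (log2 1.50 ± 0.092, edgeR adjusted p = 5.35e-12), with some overlap. *Itgax*, which encodes CD11c, differed by 2.24 from all others and 1.84 from the resident-gene cells.

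The 4 genes of the list that were lower were *Spp1*, *Lgals1*, *Axl* and *Apoe*. *Spp1*, which encodes osteopontin and is often counted with lipid-associated macrophages, was at 1947, 3634 and 6875 CPM in the members and at 3688, 6462 and 9849 CPM in the resident-gene cells (log2 -0.88 ± 0.11, edgeR adjusted p = 1.79e-07). It is also an osteoblast gene, and stromal cells of these cultures held 9025 to 27059 CPM. The difference from the resident-gene cells was -0.44 with few stromal UMIs and -0.0012 at 3000 UMIs, where it did not pass (edgeR adjusted p = 0.992), but -0.67 with classes kept (edgeR adjusted p = 7.28e-10). *Apoe*, a lipoprotein component exported by macrophages, differed by -0.20 from all others (-0.63 with few stromal UMIs, -0.52 at 3000 UMIs and -0.70 with classes kept) and by -0.78 from the resident-gene cells, and there by -1.15 with few stromal UMIs and -1.41 at 3000 UMIs. The carbohydrate-binding *Lgals1* (-0.70, and -0.34 at 3000 UMIs or -0.58 with classes kept) and the phagocytic receptor *Axl* (-1.06) were the remaining ones.

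Of 12 lipid uptake genes, 5 were called higher and 5 lower against all others, near the 34.5% and 35.3% over all genes. Against the resident-gene cells 4 and 7 of 12 were called, beside 33.3% and 33.1% over all genes. At 3000 UMIs the latter calls were 4 and 5 of 10, beside 26.9% and 29% over all genes. The scavenger receptor gene *Cd36* was at 238, 610.3 and 1069.6 CPM in the members and at 153, 271 and 1028 CPM in the resident-gene cells (log2 0.89 ± 0.10, edgeR adjusted p = 6.51e-08), higher in 15 of 16 pools with overlapping ranges. Its difference was 0.51 with few stromal UMIs, 0.35 at 3000 UMIs and 0.60 with classes kept, and it passed in each. The lipase gene *Lpl* was higher by 0.66, and by 0.28 with few stromal UMIs, where it did not pass (edgeR adjusted p = 0.0728). At 3000 UMIs *Lpl* was higher by 0.54 (edgeR adjusted p = 3.65e-05). *Vldlr*, a lipoprotein receptor gene, was lower by 1.75 and differed by -0.46 with few stromal UMIs and -1.57 with classes kept. The scavenger receptor *Marco* and the lipid-binding *Cd5l* (-2.36) were also lower.

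Lipid droplet and triglyceride genes were called higher in 8 of 15 and lower in 4 against all others (median log2 0.43), and higher in 9 of 14 and lower in 2 against the resident-gene cells (median 0.30). At 3000 UMIs 4 of 8 were higher and 2 lower than in the resident-gene cells (median 0.29), and with classes kept 4 and 1 of 9 (median 0.16). Against all others the higher and lower calls for these genes were 7 and 4 of 15 with few stromal UMIs (median 0.20), 5 and 1 of 11 at 3000 UMIs (median 0.21) and 5 and 2 of 13 with classes kept (median 0.26). *Hilpda*, which blocks the main triglyceride lipase, was at 419.8, 625 and 872 CPM in the members and at 93.2, 208 and 408 CPM in the resident-gene cells, without overlap (log2 1.46 ± 0.088, edgeR adjusted p = 4.36e-12). The droplet coat gene *Plin3* (1.37) and the lipase gene *Pnpla2* (0.88) were higher there, with 1.13 and 0.43 at 3000 UMIs. The lipase inhibitor *G0s2* was lower in both comparisons (-2.51 and -0.79), and the triglyceride synthesis gene *Dgat2* was lower against all others (-1.51).

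Of 13 cholesterol storage and efflux genes, 9 were called higher and 3 lower against all others (median 0.45). Against the resident-gene cells 9 were higher and 3 lower (median 0.25), but the median was -0.056 with few stromal UMIs and -0.21 at 3000 UMIs, where 2 of 12 were called higher and 7 lower. With classes kept 5 of 12 were higher and 3 lower (median -0.042). The sterol exporter *Abcg1* was at 108, 211 and 318 CPM in the members and at 45.1, 63.9 and 133 CPM in the resident-gene cells (log2 1.48 ± 0.063, edgeR adjusted p = 3.29e-14), and differed by 1.13, 0.97 and 1.12 under those settings. *Soat1*, which esterifies cholesterol, was higher by 0.72, with 0.49, 0.38 and 0.51, while the exporter *Abca1* (0.25) turned to -0.064, -0.29 and -0.05, of which the value at 3000 UMIs passed.

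Cholesterol synthesis genes went the other way. Of 14, 11 were called lower and none higher by edgeR against all others (median -0.47), and 10 lower and none higher against the resident-gene cells (median -0.40). Over all genes 35.3% and 33.1% were called lower in these 2 comparisons. Against the osteoclast-gene cells only 1 of 11 was called lower and none higher (median 0.11), beside 14.7% called lower over all genes. *Idi1*, an isomerase gene of the pathway, was at 1.02, 8.47 and 13.3 CPM in the members and at 8.66, 16.6 and 25.1 CPM in the resident-gene cells (log2 -1.15 ± 0.13, edgeR adjusted p = 3.38e-08), and differed by -1.08 with few stromal UMIs. The squalene epoxidase gene *Sqle* did not pass (log2 -0.15, edgeR adjusted p = 0.184).

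**Figure D3:**
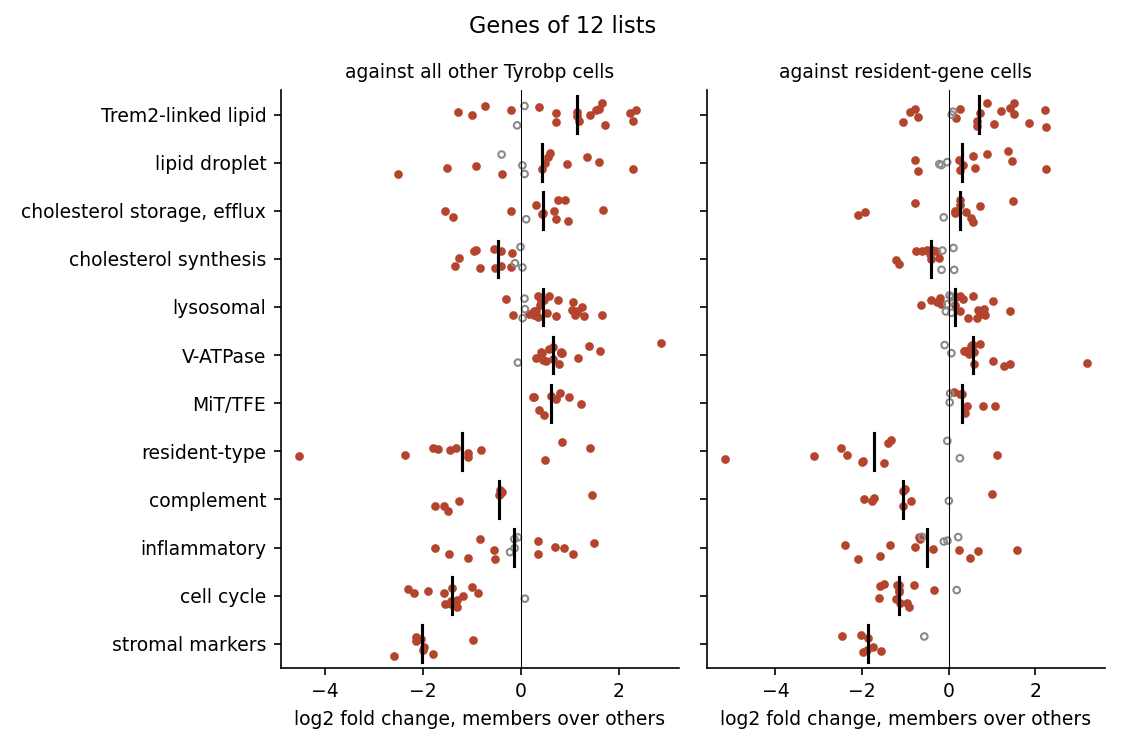
Log2 difference between members and all other *Tyrobp* cells (left) or resident-gene cells (right) for each tested gene of 12 lists; filled points passed an adjusted p of 0.05, open points did not, and the black bar is the list's median. The MiT/TFE genes lie above 0 on the left, and the stromal and osteoblast markers below 0 on both sides.

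Most lysosomal genes were higher in the members than in all other *Tyrobp* cells, with 21 of 26 called higher and 2 lower (median 0.45). In that comparison the higher and lower calls were 15 and 4 of 26 with few stromal UMIs (median 0.23), 17 and 3 of 26 at 3000 UMIs (median 0.20) and 13 and 4 of 26 with classes kept (median 0.18). Against the resident-gene cells 14 were called higher and 5 lower (median 0.15), but this balance turned with few stromal UMIs (10 and 11, median -0.035) and at 3000 UMIs (6 and 14, median -0.18), and was even with classes kept (10 and 10, median -0.021). *Ctsl*, the protease cathepsin L, was at 2019, 2886 and 5136 CPM in the members and at 559, 1022 and 1904 CPM in the resident-gene cells, without overlap (log2 1.40 ± 0.096, edgeR adjusted p = 3.04e-11), with 1.20, 1.04 and 1.21 under those settings. *Gla*, which removes galactose from glycolipids, was higher by 1.02 without overlap between pools, with 0.71, 0.58 and 0.75. The cathepsin D gene *Ctsd* was higher by 0.73, with 0.44, 0.27 and 0.48, whereas the cathepsin B gene *Ctsb* (0.64) was at 0.03 at 3000 UMIs and did not pass, but passed at 0.33 with classes kept.

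The vacuolar proton pump (V-ATPase) acidifies lysosomes. Against all others 16 of 17 subunit genes were called higher and none lower by edgeR (median 0.66). Compared with the resident-gene cells, 14 of 16 were called higher and none lower (median 0.55), with 9 higher and 2 lower at 3000 UMIs (median 0.17) and 14 and 1 with classes kept (median 0.32). Besides *Atp6v0d2*, the membrane subunit *Tcirg1* was at 253, 434 and 671 CPM in the members and at 102, 149.9 and 240.5 CPM in the resident-gene cells, without overlap (log2 1.42 ± 0.089, edgeR adjusted p = 7.49e-12), and higher by 0.83 at 3000 UMIs and by 1.10 with classes kept. The subunit *Atp6v0e* was higher by 0.57 and *Atp6v1a* by 0.53, of which the second was at -0.037 at 3000 UMIs, where it did not pass, and at 0.20 with classes kept, where it did.

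The MiT/TFE factors, which drive lysosomal genes, and their regulators were called higher in 9 of 9 against all others (median 0.61), and in 7 of 9 against the resident-gene cells (median 0.30), but in 2, with 5 lower, at 3000 UMIs (median -0.16), and in 2, with 2 lower, with classes kept (median 0.041). Against all others the higher and lower calls were 6 and none of 9 with few stromal UMIs (median 0.22), 7 and none of 9 at 3000 UMIs (median 0.35) and 6 and none of 9 with classes kept (median 0.27). *Rragd*, a GTPase that places the factors at the lysosome, was at 25.2, 40.4 and 51.1 CPM in the members and at 10.6, 22.6 and 31.9 CPM in the resident-gene cells, higher by 0.80 and by 0.58 at 3000 UMIs. *Mitf* itself was higher by 0.37 but differed by -0.25 at 3000 UMIs and by -0.067 with classes kept, where it did not pass (edgeR adjusted p = 0.507). In the 250 bases upstream of RefSeq starts, searched on both strands, CACGTG was present for 7 of 21 lysosomal genes with a promoter (33.3%), 2 of 12 V-ATPase genes (16.7%), 10.2% of the tested genes and 6.86% of all 27025 genes. The longer TCACGTGA, which contains CACGTG, was present for 4 of 21 lysosomal genes (19.0%), among them *Ctsd* and *Gla*, 1 of 12 V-ATPase genes (8.33%), 1.87% of tested genes and 0.907% of all. TCATGTGA was present for 2 of 21 lysosomal genes (9.52%), 1 of 12 V-ATPase genes (8.33%), 0.743% of tested genes and 0.984% of all. Of the 15 named genes with the highest difference, 13 had a promoter and 1 of these held CACGTG.

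The members carried macrophage RNA. The summed level of 10 macrophage identity genes was 7661, 12321 and 16976 CPM in the lowest, median and highest pool, beside 7041, 10781 and 23568 CPM in the resident-gene cells. Much of the sum in the members was *Lyz2*, which alone was at 4529, 8330 and 12721 CPM. Of these 10 genes, 3 were called higher and 4 lower against the resident-gene cells (median -0.12), near the 33.3% and 33.1% over all genes. At 3000 UMIs 2 were called higher and 8 lower (2 and 7 with classes kept). *Cd68*, a lysosomal glycoprotein gene of macrophages, was higher than in the resident-gene cells (log2 0.82 ± 0.067, edgeR adjusted p = 5.10e-10), and by 0.44 with few stromal UMIs, 0.26 at 3000 UMIs and 0.49 with classes kept. *Adgre1*, which encodes the F4/80 antigen, was at 49.7, 89.8 and 127 CPM in the members and at 146, 228 and 299 CPM in the resident-gene cells, without overlap (log2 -1.45 ± 0.075, edgeR adjusted p = 4.41e-13), and the growth factor receptor gene *Csf1r* was lower by 0.69. At 3000 UMIs *Adgre1* was detected in 20.6% of the members and 51.2% of the resident-gene cells, beside 1.69% of T cells and 0.542% of stromal cells.

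Against the resident-gene cells, 9 of 12 resident-type macrophage genes outside the rule were called lower, each at least 2-fold (median -1.73). The 1 called higher also differed at least 2-fold. These classes were set apart by 5 genes of the same kind, so that the direction is not independent of the choice. The mannose receptor gene *Mrc1* was at 61.8, 97.1 and 320.3 CPM in the members and 263, 399.9 and 791 CPM in the resident-gene cells (log2 -1.97), the haemoglobin receptor gene *Cd163* differed by -2.34, and *Lyve1*, a hyaluronan receptor gene, was at 0, 0 and 5.68 CPM in the members and at 6.17 to 52.7 CPM in the resident-gene cells. The transcription factor gene *Maf* differed by -1.50, without overlap between pools. Against all others 9 of 12 were called lower and 3 higher, among the latter the folate receptor gene *Folr2* (log2 0.84 ± 0.13, edgeR adjusted p = 6.75e-06), which was also higher with few stromal UMIs (0.45), at 3000 UMIs (0.71) and with classes kept (0.54). Against the resident-gene cells *Folr2* did not pass (log2 0.26, edgeR adjusted p = 0.0934), and was at -0.086 with few stromal UMIs, -0.058 at 3000 UMIs and 0.038 with classes kept.

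Complement genes were called lower in 8 of 9 and higher in 1 against all others, and lower in 7 and higher in 1 against the resident-gene cells. *C1qa*, a subunit gene of the classical pathway's recognition molecule, differed by -1.05, and at 3000 UMIs it was detected in 59.0% of the members and 90.6% of the resident-gene cells, beside 3.20% of T cells and 4.02% of stromal cells. The receptor gene *C3ar1* was the exception, higher by 1.45 against all others without overlap and by 1.00 against the resident-gene cells (0.40 at 3000 UMIs and 0.68 with classes kept).

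Inflammatory genes were called in both directions. Of 16, 6 were called higher and 6 lower against all others, near the 34.5% and 35.3% over all genes. Against the resident-gene cells 4 and 8 were called (median -0.50), beside 33.3% and 33.1% over all genes. In the comparison with all others these calls were 4 and 9 of 16 with few stromal UMIs (median -0.47), 4 and 9 of 15 at 3000 UMIs (median -0.37) and 4 and 9 of 15 with classes kept (median -0.48). *Il1b*, the interleukin-1 beta gene, was at 101, 176 and 441 CPM in the members and at 13.5, 63.5 and 184 CPM in the resident-gene cells (log2 1.56 ± 0.12, edgeR adjusted p = 1.29e-10), higher in 16 of 16 pools with overlapping ranges. The monocyte-attracting chemokine gene *Ccl2* was at 52.9, 178 and 425 CPM in the members and at 425, 739.9 and 1387 CPM in the resident-gene cells, without overlap (log2 -2.10 ± 0.14, edgeR adjusted p = 1.03e-11), and the related *Ccl7* differed by -2.39. The cytokine gene *Tnf* was lower by 0.68 against the resident-gene cells and did not pass against all others (log2 -0.12, edgeR adjusted p = 0.218). It did pass there as lower with few stromal UMIs (log2 -0.56, edgeR adjusted p = 2.24e-05), at 3000 UMIs (log2 -0.32, edgeR adjusted p = 3.14e-04) and with classes kept (log2 -0.48, edgeR adjusted p = 1.10e-05).

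Cell cycle genes were called lower in 13 of 14 against all others and 13 of 14 against the resident-gene cells, with medians of -1.41 and -1.14, and none was called higher by edgeR. *Top2a*, needed for chromosome separation, was at 2.74, 19.3 and 46.6 CPM in the members and at 25.8, 54.0 and 83.9 CPM in the resident-gene cells (log2 -1.50 ± 0.17, edgeR adjusted p = 6.17e-08), with overlapping ranges, and the proliferation marker *Mki67* differed by -0.91. The *Top2a* difference was -0.92 at 3000 UMIs and -1.42 with classes kept. At 3000 UMIs *Mki67* was detected in 8.74% of the members, 15.6% of the resident-gene cells, 17.5% of T cells and 3.19% of stromal cells.

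Among metalloproteinases and related genes outside the rule, 2 of 10 were called higher and 8 lower against all others, beside 34.5% and 35.3% over all genes. The inhibitor gene *Timp1* was at 133, 356 and 588 CPM in the members and at 628, 1429.5 and 1853 CPM in the others, without overlap, but stromal cells held 2318 to 4057 CPM of it. Against the resident-gene cells its difference of -2.00 was -1.36 with few stromal UMIs, -0.24 at 3000 UMIs and -1.63 with classes kept. In other lists, higher and lower calls against the resident-gene cells were 4 and 7 of 13 phagocytosis receptors, 4 and 5 of 11 antioxidant, heme and iron genes, 3 and 6 of 13 glycolysis genes, none and 4 of 8 interferon-stimulated genes, 1 and 5 of 6 alternative activation genes, and 2 and 3 of 5 monocyte genes. Over all genes 33.3% were called higher and 33.1% lower there, and several of these short lists are near those shares.

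RNA of other cell types differed between the classes. The 8 stromal and osteoblast markers summed to 3595, 10281 and 25887 CPM in the members, 18881, 45051 and 71936 CPM in the resident-gene cells and 25311, 42708 and 72626 CPM in all others, and none of the 8 was at 0 in the members. Stromal RNA was present in every class. At 3000 UMIs *Ibsp* was detected in 88.1% of the members and 89.0% of the resident-gene cells. It was detected in 77.7% of the osteoclast-gene cells, 90.6% of the remaining cells and 94.3% of T cells. *Col1a1* and *Ibsp* together passed 100 per 10000 UMIs in 6.52% of the members, 15.1% of the resident-gene cells, 20.4% of the osteoclast-gene cells and 30.6% of the remaining cells. The setting of few stromal UMIs kept the droplets below that level. Under it 6055 of 9676 genes were called against all others and 5526 of 8938 against the resident-gene cells. The 8 granulocyte markers summed to 7.11, 83.5 and 1594 CPM in the members, 7.99, 90.7 and 1979 CPM in the resident-gene cells and 398, 17457 and 49359 CPM in all others, and the 10 named genes at the low end of that comparison were *S100a9*, *Olfm4*, *Elane*, *Prtn3*, *Ctsg*, *Camp*, *Ngp*, *Lcn2*, *Pglyrp1* and *S100a8*, all known from granulocytes. Sums in the members were at most 352 CPM for 5 B-cell markers, 93.9 for 5 basophil and mast cell markers, 5.24 for 5 dendritic markers and 9.58 for 3 endothelial markers, and *Ms4a1* and *Siglech* were at 0. Beyond these values, the part of other cells' RNA in the results was not tested.

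The osteoclast-gene cells share *Atp6v0d2* with the members. They could be compared in 3 pools, 1, 2 and 13, which held 101, 37 and 25 of them, and 11.6% of 8062 genes were called higher and 14.7% lower in the members, with 6.16% called and at least 2-fold higher and 8.93% called and at least 2-fold lower. In the 2 pools left under the other settings, 1 and 2, 12.4% of genes were called higher and 13.9% lower with few stromal UMIs, 5.55% and 6.06% at 3000 UMIs, and 5.62% and 7.46% with classes kept. Without pool 2 the number of genes called fell from 2115 to 847, and without pool 1 to 1321. Osteoclast genes outside the rule were called lower in the members in 10 of 11 and higher in none by edgeR (median -1.66), a direction that is not independent of the choice. *Nfatc1*, the master factor of osteoclasts, was at 42.9, 29.2 and 31.3 CPM in the members of pools 1, 2 and 13 and at 519, 435 and 491 CPM in the osteoclast-gene cells (log2 -3.88 ± 0.17, edgeR adjusted p = 2.34e-07). *Ctsk*, the collagen-cleaving cathepsin K gene, was at 1391, 1029 and 981 CPM in the members and at 7385, 7032 and 4632 CPM in the osteoclast-gene cells (log2 -2.58 ± 0.17, edgeR adjusted p = 1.59e-06). *Itgb3*, an integrin gene of the osteoclast's sealing zone, was at 4.51, 2.14 and 0 CPM in the members and at 191, 306 and 116 CPM in the osteoclast-gene cells. In all 3 pools the classes were apart for each of these genes.

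Against the resident-gene cells, by contrast, *Ctsk* was higher in the members, at 329, 612 and 1391 CPM beside 73.9, 229 and 808 CPM over 16 pools (log2 1.42 ± 0.15, edgeR adjusted p = 2.79e-08). Of the osteoclast genes outside the rule, 7 of 10 were called higher and 3 lower there. *Nfatc1* was lower (log2 -0.34 ± 0.076, edgeR adjusted p = 3.90e-04), although at 3000 UMIs its difference of -0.16 did not pass, nor did the -0.24 with classes kept (edgeR adjusted p = 0.0699). *Atp6v0d2* was lower than in the osteoclast-gene cells by 0.93, and *Tcirg1* did not pass (log2 -0.17, edgeR adjusted p = 0.439). In pools 1 and 2 alone, *Tcirg1* passed as lower with few stromal UMIs (log2 -0.35, edgeR adjusted p = 0.0113) and at 3000 UMIs (log2 -0.74, edgeR adjusted p = 0.00445), but not with classes kept (log2 -0.22, edgeR adjusted p = 0.351). Of 16 V-ATPase genes 2 were called higher and 11 lower than in the osteoclast-gene cells (median -0.67). The members thus lay between these classes in *Ctsk* and *Atp6v0d2*.

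Several lipid genes and *Il1b* (log2 4.80) were higher in the members than in the osteoclast-gene cells. By edgeR 5 of 9 lipid uptake genes were called higher and 1 lower, 5 of 11 cholesterol storage and efflux genes higher and 1 lower, and 4 of 12 lipid droplet genes higher and none lower. *Cd36* was at 1064, 1069.6 and 530.2 CPM in the members of pools 1, 2 and 13 and at 72.5, 75.3 and 7.74 CPM in the osteoclast-gene cells (log2 3.98 ± 0.24, edgeR adjusted p = 1.04e-06). *Plin2* was at 3099, 2998 and 2256 CPM in the members and at 525, 387 and 155 CPM in the osteoclast-gene cells (log2 2.94 ± 0.21, edgeR adjusted p = 3.04e-06), and *Fabp5* differed by 2.52 and *Fabp4* by 3.00. Of 14 inflammatory genes 8 were called higher and none lower by edgeR (median 1.41), with *Il1b* at 102, 127 and 441 CPM beside 2.29, 6.46 and 15.5 CPM. *Il7r* (4.85), *Tnfrsf26* (4.23), *Npy* (4.15), *Pdpn* (4.14), *Hal* (4.11), *Itgax* (3.96) and *Htr2b* (3.76) were also among the named genes at the high end, as was *Tmem154*, at 59.6, 86.4 and 42.6 CPM in the members and 0, 2.15 and 0 CPM in the osteoclast-gene cells. At the low end, besides *Itgb3*, were *Kbtbd11* (-6.03), *Mt3*, *Rufy4* and *Ankrd2*, of which *Ankrd2* was at 133, 157 and 61.9 CPM in the osteoclast-gene cells and 0, 0.133 and 0 CPM in the members. The 3 comparisons use the same member cells and are not independent of each other.

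**Figure D4:**
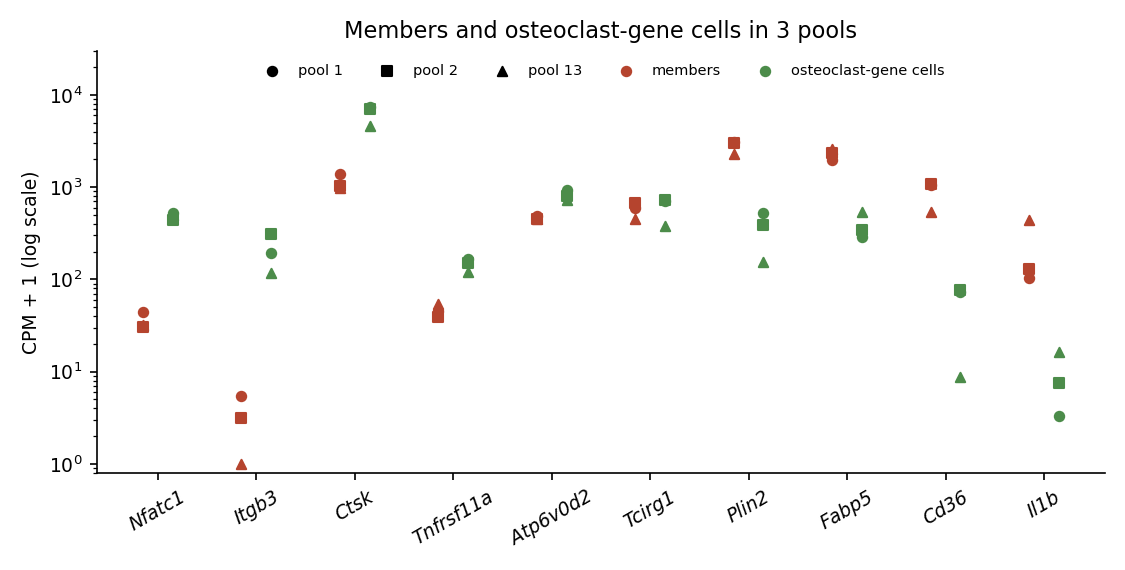
Level in CPM plus 1, on a log axis, of 10 genes outside the rule in members and osteoclast-gene cells of pools 1, 2 and 13, 1 point per pool. Osteoclast genes such as *Nfatc1* (29.2 to 42.9 CPM in the members and 435 to 519 CPM in the osteoclast-gene cells) are lower in the members, and *Plin2*, *Fabp5*, *Cd36* and *Il1b* are higher.

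Among the members, some genes of antigen presentation, of monocyte-type cells and of granulocytes varied widely between pools. The granulocyte genes *S100a9* and *Ngp* had medians of 20.8 and 5.90 CPM and reached 573 and 373 CPM in pool 12. *Chil3*, which encodes a secreted chitinase-like protein, was at 0 CPM in the lowest pool, 70.7 CPM at the median and 4324 CPM in pool 5, and it was also high in pools 6, 8, 18 and 7, at 3627, 1847, 1392 and 1107 CPM. *Cd74*, the chaperone of MHC class II molecules, was at 1979, 1634, 1131, 1070.0 and 472 CPM in pools 5, 6, 18, 8 and 14 and at most 178 CPM in every other pool. *H2-Aa*, an MHC class II chain gene, was at 789, 766, 545 and 452 CPM in pools 5, 6, 8 and 18. The same 4 pools were high in *Cd74* in the resident-gene cells, at 1556, 1579, 2122 and 641 CPM.

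**Figure D5:**
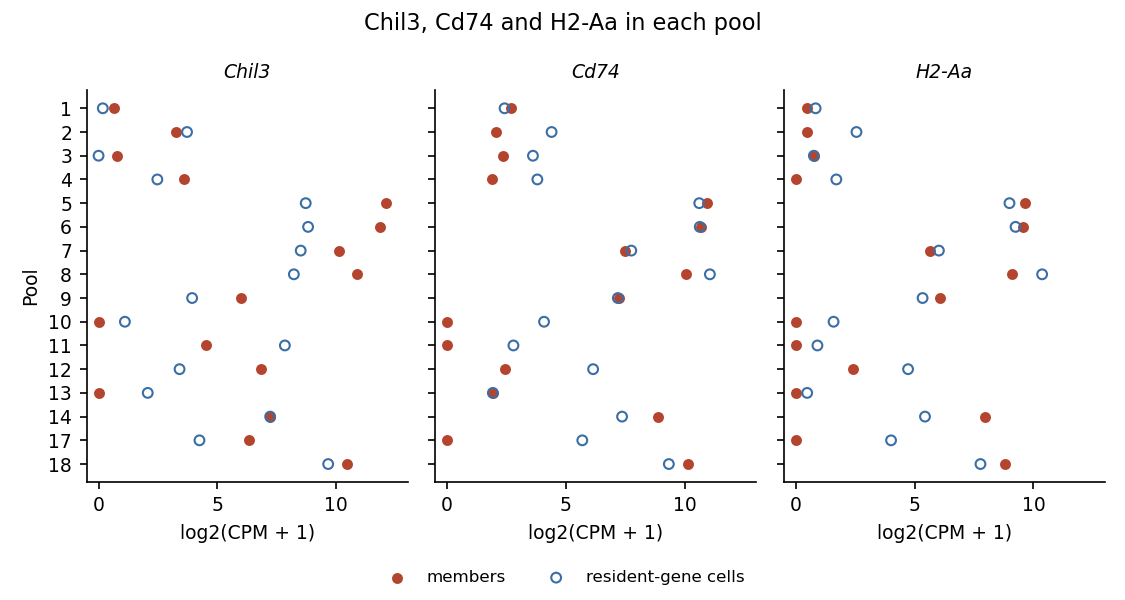
Level of *Chil3*, *Cd74* and *H2-Aa* as log2(CPM + 1) in the members (filled) and the resident-gene cells (open) of each pool. Pools 5, 6, 8 and 18 are high in all 3 genes in both classes, and pools 1, 3, 10 and 13 are low.

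With that spread, none of 7 MHC class II genes passed edgeR's test against all others and 0 had an unadjusted p under 0.05, with *Cd74* the nearest (log2 -0.72, edgeR adjusted p = 0.0834). DESeq2 called 0 higher and 4 lower. Under other settings *Cd74* passed, lower in the members, with few stromal UMIs (log2 -1.12, edgeR adjusted p = 0.0113) and at 3000 UMIs (log2 -1.17, edgeR adjusted p = 5.43e-04). *H2-Aa* passed as well, lower with few stromal UMIs (log2 -0.79, edgeR adjusted p = 0.0486) and at 3000 UMIs (log2 -0.90, edgeR adjusted p = 0.00541). In the comparison with the resident-gene cells *Cd74* did not pass (log2 -0.36, edgeR adjusted p = 0.262), but it did with few stromal UMIs (log2 -0.62, edgeR adjusted p = 0.0490) and at 3000 UMIs (log2 -0.75, edgeR adjusted p = 8.06e-04). *Chil3* was higher than in the resident-gene cells (log2 1.42 ± 0.41, edgeR adjusted p = 0.00377) and lower than in all others (-2.88), with mixed signs over pools. It was higher than in the resident-gene cells in 11 of 16 pools and lower than in all others in 14 of 16, the exceptions being pools 5 and 6, at 4324 and 3627 CPM in the members beside 1369 and 2283 CPM in all others. In the members the monocyte-lineage gene *Ear2* reached 387 CPM in pool 5 and the arginase gene *Arg1* 299 CPM in pool 6. Their medians over pools were 0.400 and 11.3 CPM, and their means 79.3 and 66.0 CPM. By contrast *Plin2* differed between the highest and lowest pool of the members by 2.72-fold and *Hilpda* by 2.08-fold. The choosing genes *Gpnmb*, *Mmp12* and *Trem2* spanned 2.55-fold, 2.79-fold and 3.15-fold.

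The same libraries were sequenced in a second run (run 2), which tests the counting and not the cultures. Of the droplets of the first run, used for all values above, 98.2% were also in run 2. In both runs 3198 cells were members, which is 72.9% of the first run's members and 73.0% of the 4379 of run 2, from 63.1% to 80.0% by pool. The number of members was thus nearly the same, while over 1 in 4 were not shared.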

How the data were processed

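Single-cell libraries of 16 pools of DO mouse BMSC-OBs (10x Genomics 3′ v2 chemistry) were sequenced in 2 runs, giving 32 samples. The authors aligned reads with Cell Ranger, and the submitters' processing notes name version 5.0.0 and build mm10. The deposited matrices hold raw UMI counts per gene and droplet from before the authors' own filters and Souporcell doublet removal, so cells were limited again here. The values 400, 6200 and 10% mitochondrial UMIs, and 20% *Rpl* and 15% *Rps* in an alternative, are those of the study's methods, which name reads where detected genes were counted here for the first 2. Doublets stayed in except in an alternative. The members and gene lists were chosen with earlier results of these data known. UMIs were summed per pool and class (at least 20 cells) in Python 3.11.15, and edgeR 4.0.16 in R 4.3.3 fitted its quasi-likelihood test with TMM scaling and pool as a block, over all genes outside the 15 of the rule, with Benjamini-Hochberg adjustment over all genes tested. The block was kept because both classes of a pool come from the same mice: their deviations correlated with median r of 0.405, 0.449 and 0.111 in the comparisons with all other, resident-gene and osteoclast-gene cells, and lowest r of 0.107, 0.0985 and 0.102.

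Genes were named by rule: adjusted p of at most 0.05, 1 direction in every pool and a mean of at least 50 CPM in the higher class, with the 15 highest and 10 lowest log2 differences in the first comparison and 10 and 5 in the others, leaving out mitochondrial, ribosomal and unnamed genes, plus markers and examples from the 30 lists. List genes other than those of largest difference were picked as examples after their values were seen. Printed CPM are unscaled, and TMM moved the log2 differences by a median over pools of -0.125, -0.114 and -0.076. On simulated counts, 200 genes were changed 2-fold, as many up as down. The step recovered 97%, 98% and 66.5% of them in the 3 comparisons, with 6.73%, 6.67% and 4.32% of called genes false. Far more genes were called in the real data than were changed in the simulation, so these rates may not hold there. Alternatives were DESeq2 1.42.0, other score limits, no *Mmp12* in the score, thinning to 3000 UMIs (seeded) with the classes redrawn or kept, Scrublet in scanpy 1.11.5 at 0.8% doublets per 1000 barcodes, run 2, other cell limits, no block, each pool left out, and few stromal UMIs. Permutation tests used numpy 2.4.6 with 100000 resamples. T cells had at least 3 UMIs of T-cell genes, stromal cells at least 5 of *Col1a2* and none of *Ptprc*, and both none of *Tyrobp*; thinned shares of stromal cells used a seeded sample per pool. UMIs remove PCR copies, but intervals cover counting error only. Pools held 53990642 to 100777353 UMIs.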

Additional observations from a re-analysis of the deposited data

Results flagged for a closer look

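Droplets outside the cell limits also met the rule for Gpnmb Trem2 macrophages, in data that the comparisons did not use. Above 10% mitochondrial UMIs, 126 of 853 *Tyrobp* droplets did (14.8%). Above 6200 detected genes, 13 of 401 did (3.24%), and below 400 genes 11 of 104 did (10.6%). Among the kept *Tyrobp* cells the share was 24.8%.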

How the results depend on the processing

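The count of members was 4384, and 2856 with the score limit at 40 per 10000. At 3000 UMIs, with the classes redrawn, 4764 genes were called against all other *Tyrobp* cells (of 7659), 3611 against the resident-gene cells (of 6678) and 935 against the osteoclast-gene cells (of 2115, and in 2 pools in place of 3). With classes kept these were 4755, 4202 and 1006, the last also in 2 pools. In that last comparison DESeq2 called 1349, and leaving out 1 pool gave 847 to 2400. The relation of member share to depth had r = 0.595 with doublets removed (permutation test, adjusted p = 0.0586), and 0.555 to 0.715 with 1 pool left out. Without pool as a block for pairing the classes, 6859, 5902 and 1893 genes were called.

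Among the single genes that passed the test as reported or under an alternative, these turned direction against the resident-gene cells: *Abca1* was at -0.29 at 3000 UMIs, -0.050 with classes kept and -0.064 with few stromal UMIs, *Tfec* at -0.11 at 3000 UMIs and -0.076 with few stromal UMIs, *Atp6v1a* at -0.037 and *Mitf* at -0.25 at 3000 UMIs (-0.067 with classes kept), and *H2-Aa* at -0.67 with the limit at 40 and -0.59 without *Mmp12*. Values that passed neither way also changed sign, such as those of *Folr2*. The few-stromal limit and the setting with classes kept were chosen after seeing the data. The cause of these changes was not tested. The osteoclast-gene comparison rests on 3 pools, with as few as 25 osteoclast-gene cells in a pool.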
